A study of Mus musculus with 2 samples.

Results

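The genes described here encode the actin cytoskeleton and the focal adhesions that anchor it, and their signals were compared between wild-type and Slc39a13-KO primary osteoblasts of the mouse. The members were a fixed list of 39 genes, read through every probe set that the array annotation gave to exactly 1 gene symbol of the list, which leaves out the contractile genes specific to smooth muscle. (Each probe set consists of short probes directed at 1 transcript.) Of the 39 genes, 37 had such probe sets, 105 of the 45101 on the array, and the other two, Ptk2 (focal adhesion kinase) among them, were not analysed here. Of the 105, 3 were control probe sets for beta-actin, kept apart as a measure of RNA quality.

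Each genotype was read on 1 array, so no replicate error exists and no test between genotypes was made. The cells were cultured from enzyme-digested skull vaults of newborn pups, in medium with serum; the labels name no added stimulus. Slc39a13-KO mice were homozygous for a constitutive targeted allele in which a Neo cassette replaced exons 6 to 8 of the zinc transporter gene Slc39a13 (Zip13), so every cell type of the pup carried it, and wild-type mice carried no targeted allele. The allele was made in R1 embryonic stem cells, and homozygotes came from interbreeding the offspring of chimeras. How many pups were pooled for a culture, their sex and the strain of these mice are not stated in the sources used here.

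Actin monomers assemble into filaments that are severed, elongated, coated by tropomyosins and bundled by cross-linkers. Bundles under tension, the stress fibers, end in focal adhesions, where talin and vinculin couple them to integrins bound to the matrix. RhoA drives this assembly, and free actin monomers restrain the cofactors of the transcription factor Srf, whose targets include many genes of the same machinery. Osteoblasts attach to and pull on bone matrix through these structures.

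The deposited values are linear signals with a common trimmed mean on each array, and were treated as MAS5 signals. Signals below a floor of 85.1, the median over both arrays, were raised to it, and only probe sets above this floor on either array count as measured. The value of a gene is the mean log2 ratio (Slc39a13-KO minus wild-type) of its measured probe sets. The call of higher or lower required a mean of at least 2-fold and 1 sign throughout its measured probe sets. The only error available is technical, the SD between probe sets of 1 gene on the same arrays, which had a median of 0.34 (log2) over the members and 0.34 over all genes.

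Some facts of the arrays bear on every value. Slc39a13 itself, the deleted gene, read 1309 on the wild-type array against 90.4 on the other. The wild-type array read Y-linked transcripts (Eif2s3y, 1251 against 4.63 in Slc39a13-KO) and the Slc39a13-KO array read Xist, the transcript of the inactive X chromosome (117 and 8363), so the sex of the cells differed together with the genotype and the effects of both cannot be told apart. Of 16 osteoblast markers 10 were measured, 4 of them called higher and 1 lower, where 8.01% and 5.93% of all genes were. The summed signal of the list was 92040 in wild-type and 112592 in Slc39a13-KO. It was 91683 and 88341 without Omd (osteomodulin), which read 357 and 24252. Type I collagen was abundant on both arrays (Col1a2, 28503 and 25943), but of the defining markers Alpl lay at the floor in wild-type (197 in Slc39a13-KO), Ibsp was below the floor on both and Sp7 was close to it (94.8 and 153). Other listed markers were read more clearly. Pth1r (295 and 1534) and Dmp1 (the floor and 383) were called higher, and Msx2 (373 and the floor) was called lower. Dlx5 read 191 and 279 and was not called. Over all measured genes, 57.5% of the calls were higher, a share that was 38.3% with median scaling, 47.5% with quantile normalization, 46.8% with loess scaling and 96.3% with scaling on the poly-A control RNAs. Those controls, bacterial RNAs added before labeling, read lower in Slc39a13-KO in 24 of 24 probe sets (median log2 ratio -1.02), and scaling on them moved the median of all genes from 0.11 to 0.94 (log2), so each direction below is relative to the bulk of genes.

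In the Slc39a13-KO array, 6 of the listed actin and adhesion genes were called lower and 1 higher. Actb and Actg1, the actin genes of the list, were not among them. The lower genes were Fhl1, Tagln2, Tpm2, Flnc, Csrp1 and Pdlim7, which encode proteins that coat, bundle or decorate filaments, and the higher gene was Ezr, which ties filaments to the plasma membrane. Thus 6 of 37 measured members (16.2%) were called lower, where 5.93% of all 12269 measured genes were, and 1 of 37 (2.70%) was called higher, where 8.01% of all genes were. Leaving out the 3 members with a value at the floor, the counts over 34 genes were again 6 and 1, where 5.21% and 6.83% of all such genes were called. By probe set, 17 of 93 (18.3%) were at least 2-fold lower, from 9 genes, and 7 (7.53%) at least 2-fold higher, from 3 genes, against 6.54% and 9.79% of all measured probe sets. The median log2 ratio of the members was -0.32, against 0.11 for all genes, and 26 of 37 members lay below the all-gene median. Most members differed little, since 22 of 37 (59.5%) lay within 1.5-fold, as did 67.7% of all measured genes. In cultured populations, fewer cells of a type and less RNA per cell cannot be told apart.

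**Figure D1:**
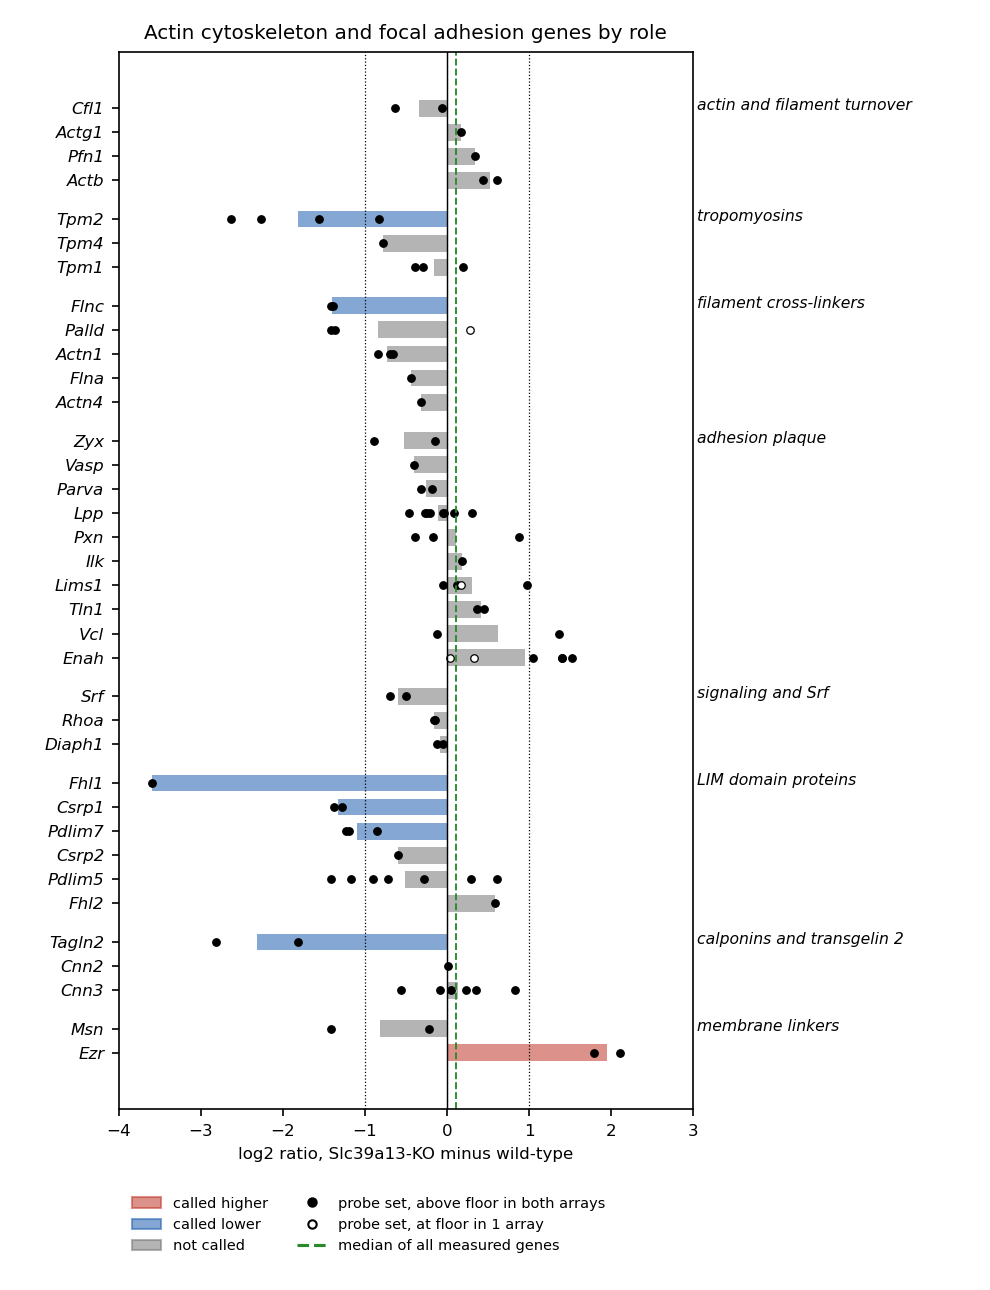
Horizontal axis, log2 ratio of the Slc39a13-KO to the wild-type signal, for 36 of the 37 measured genes, grouped by role. Bars are means over measured probe sets, filled points are probe sets above the floor on both arrays, open points have 1 array at the floor, dotted lines mark 2-fold and the green dashed line is the median of all genes (0.11). The 6 blue bars, called lower, run from -3.59 (Fhl1) to -1.09 (Pdlim7), and the 1 red bar, called higher, is Ezr at 1.95.

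LIM domain proteins, adaptors with zinc-binding fingers that dock on filaments and adhesions, held 3 of the 6 lower members. Fhl1, a four-and-a-half LIM protein abundant in muscle, read 17399 on the wild-type array and 1445 on the Slc39a13-KO array (log2 ratio -3.59). That difference was the 29th lowest ratio among 12269 genes. It rests on 1 probe set, since the other for Fhl1 lay below the floor on both arrays (29.7 and 24.2).

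Fhl2, its closest relative in the list and a coactivator in osteoblasts, went the other way, from 2710 on the wild-type to 4052 on the Slc39a13-KO array (log2 ratio 0.58, not called). The log2 ratio of Fhl1 minus that of Fhl2 was -4.17, and ran from -4.22 to -2.52 over the 10 settings that measured both. Csrp1, a muscle LIM protein relative that binds alpha-actinin, was read by a pair of probe sets, at 3978 and 8488 in wild-type and 1531 and 3508 in Slc39a13-KO. Both readings were lower, by a mean of 2.51-fold (log2 ratio -1.33, SD 0.073 between probe sets).

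Csrp2 differed less, with 5038 and 3336 (log2 ratio -0.59, not called). Pdlim7, the PDZ-LIM protein enigma, which has been linked to bone formation, was lower in all 3 of its probe sets. These read 3169, 933 and 573 in wild-type and 1347, 515 and 250.6 in Slc39a13-KO, a mean of 2.14-fold lower (log2 SD 0.21). Its dimmest probe set may cross-hybridize. Pdlim5, another PDZ-LIM protein, had a mean log2 ratio of -0.51 (SD 0.75), under 2-fold, and was lower in 5 of its 7 probe sets. Those 5 read 5805, 1114, 753, 409 and 346 in wild-type and 2590, 677, 403, 153 and 285 in Slc39a13-KO. The others read 589 and 194 in wild-type and 723 and 295 in Slc39a13-KO, so the readings did not have 1 sign.

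Tropomyosins, the coiled-coil proteins that coat filaments and set which partners bind, differed in 1 of 3 genes. Tpm2 (beta-tropomyosin) was lower in each of its 4 probe sets, and the brightest had 23911 in wild-type and 8130 in Slc39a13-KO. The other three read 18000, 5763 and 204 in wild-type and 3738, 929 and 115 in Slc39a13-KO, so the signals separated at every level of brightness. The probe set at 5763 and 929 may cross-hybridize. The mean of Tpm2 was 3.53-fold lower (log2 ratio -1.82, SD 0.80). Tpm4, the short non-muscle form, had 20632 and 12032 on its probe set (log2 ratio -0.78) and was not called. Tpm1 read 18079, 15857 and 422 in wild-type and 14774, 12096 and 483 in Slc39a13-KO, a mean of -0.16 with its dimmest probe set on the other side of 0. The lowest reading of Tpm1 (-0.39) lay above the highest of Tpm2 (-0.83).

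The cross-linkers, which hold filaments in bundles and networks, all lay below the median of all genes in every setting that measured them, and 1 of 5 was called. Flnc (filamin C), the muscle-enriched filamin, had 840 and 792 in wild-type and 320 and 298 in Slc39a13-KO on its pair of probe sets. Both gave nearly the same ratio (log2 -1.39 and -1.41), a mean of 2.64-fold lower, though the probe set at 792 and 298 may cross-hybridize. Flna, the filamin of most cells, had 12694 and 9375 (log2 ratio -0.44, not called), so the log2 ratio of Flnc minus that of Flna was -0.96.

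The alpha-actinins, which bundle stress fibers, differed by less than 2-fold. Actn1 had 12033, 4399 and 3631 in wild-type and 7612, 2449 and 2239 in Slc39a13-KO, a mean log2 ratio of -0.73 with close agreement of its probe sets (SD 0.10), and Actn4 had 8767 and 7033 (-0.32). Palld (palladin), a scaffold that binds alpha-actinin, had a pair of bright probe sets at 8647 and 8713 in wild-type and 3234 and 3371 in Slc39a13-KO. Both bright readings were past 2-fold, but another at 78.7 and 103, next to the floor, had the opposite sign, and Palld was not called.

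Tagln2 and the calponins bind along filaments and share a calponin homology domain. Tagln2 (transgelin 2) had 3780 and 3792 in wild-type and 1076 and 537 in Slc39a13-KO on its measured probe sets, a mean of 4.98-fold lower (log2 ratio -2.32, SD 0.71). The first of these reads variants of Tagln2 by its suffix and the second may cross-hybridize with other transcripts, and the signals of a remaining probe set lay below the floor on both arrays. Cnn2 had 17619 and 17789, a log2 ratio of 0.01, the closest to 0 of all members. Cnn3 was read by 6 probe sets, at 23969, 18092, 14828, 8585, 6737 and 1309 in wild-type and 28094, 17110, 15295, 15255, 4579 and 1668 in Slc39a13-KO. Its ratios ran from -0.56 to 0.83 with a mean of 0.14, neither called nor of 1 sign, and 5 of the 6 may cross-hybridize, all but the one at 8585 and 15255.

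Ezrin and moesin, which link filaments to membrane proteins, differed in opposite directions. Ezr had 862 and 108 in wild-type and 2984 and 464 in Slc39a13-KO, and both readings were higher, by a mean of 3.86-fold (log2 ratio 1.95, SD 0.22). Its dimmer probe set may cross-hybridize. Msn, the moesin usual in mesenchymal cells, had 10966 and 2306 in wild-type and 4111 and 1979 in Slc39a13-KO. One of its probe sets was 2.67-fold lower and the other 1.17-fold, so Msn was not called (log2 ratio -0.82). The 2.77 between the ratios of Ezr and Msn ran from 1.98 to 3.21 over 11 settings. Rdx (radixin), another protein of this family, was outside the member list and had a ratio of 0.71 on 3 probe sets (1522 and 2488).

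**Figure D2:**
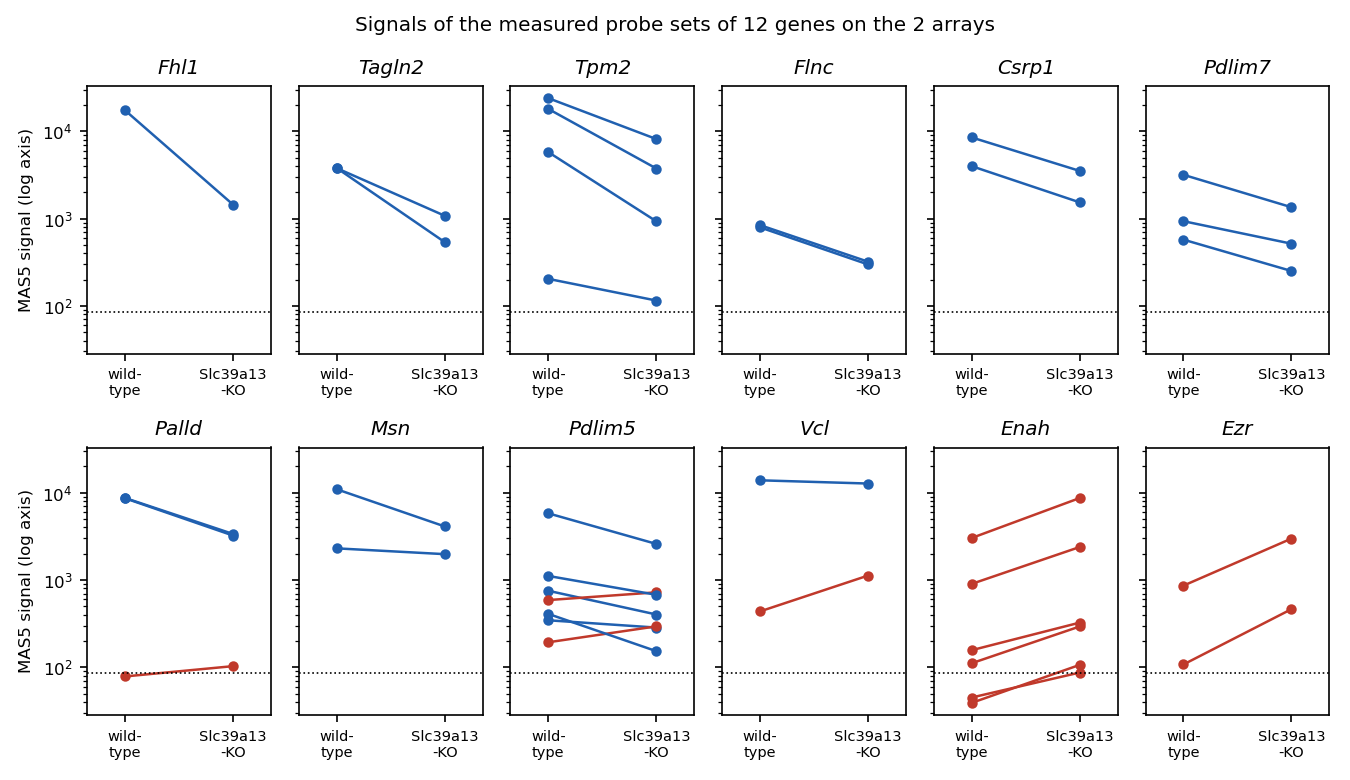
MAS5 signals (vertical log axis) of every measured probe set of 12 genes on the wild-type and Slc39a13-KO arrays, each line 1 probe set, blue where lower and red where higher in Slc39a13-KO, with the dotted line at the floor of 85.1. Signals are compared within a probe set and not between probe sets. All lines of the 6 genes of the upper row slope down and all lines of Ezr and Enah slope up, whereas Palld, Pdlim5 and Vcl hold lines of both directions.

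Actb, Actg1, Pfn1 and Cfl1, the members for actin and filament turnover, differed by less than 2-fold between the arrays. Actb (beta-actin) had 29656 and 1323 in wild-type and 40345 and 2022 in Slc39a13-KO, a mean log2 ratio of 0.53 (SD 0.12). Its control probe sets, which read the 5-prime end, the middle and the 3-prime end of the same transcript, had 28831, 29522 and 37340 in wild-type and 35786, 37440 and 45205 in Slc39a13-KO. All 3 were higher by 0.28 to 0.34 (log2), and the ratio of the 3-prime to the 5-prime signal was 1.30 in wild-type and 1.26 in Slc39a13-KO. The same ratio at Gapdh was 0.80 and 0.75.

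Actg1 (gamma-actin) had 35144 and 39454 on a probe set whose suffix marks sequence shared between transcripts, so beta- and gamma-actin, which are near-identical, may not be fully separated. Pfn1 (profilin 1), which feeds monomers to growing ends, had 6814 and 8608, a log2 ratio of 0.34. Cfl1 (cofilin 1), which severs old filaments, had a mean log2 ratio of -0.34, but its specific probe set read 6403 and 6146 and the one prone to cross-hybridization 23305 and 15091.

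The 10 measured genes of the adhesion plaque had a median of 0.15, close to the 0.11 of all genes. None was called, where 8.01% of all genes were called higher and 5.93% lower. Enah (Mena), which elongates filaments at adhesions, came nearest with a mean of 1.94-fold higher. Its brightest probe sets had 3031 and 903 in wild-type and 8696 and 2390 in Slc39a13-KO, and with 2 dimmer ones (157 and 111 in wild-type, 325 and 294 in Slc39a13-KO) 4 of its 6 measured probe sets were past 2-fold. A further pair lay at the floor in wild-type and 87.3 and 107 in Slc39a13-KO, which lowered the mean, and Enah was called higher under 7 of 11 settings. Vasp, of the same family, was on the other side (2260 and 1713, log2 ratio -0.40).

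Talin and vinculin, the link between integrins and actin, were near equal or slightly higher. Tln1 had 4444 and 6093 on its brighter probe set and a mean log2 ratio of 0.41 (SD 0.061). Vcl was at 13871 and 12739 on its bright probe set but at 437 and 1125 on its dim one, so its mean of 0.62 (SD 1.05) says little of the direction. The partners Ilk, Parva and Lims1, which form 1 complex at integrin tails, had ratios of 0.19, -0.25 and 0.31. Lims1 read 2207, 1738, 414 and 71.3 in wild-type and 2396, 1685, 818 and 96.2 in Slc39a13-KO, so its mean leaned on 1 of its 4 probe sets. Zyx and Lpp, zyxin family LIM proteins of the plaque, had -0.52 (SD 0.52) and -0.11 (SD 0.24), the latter over 8 probe sets, the most of any member. Zyx read 11989 and 374 in wild-type and 10813 and 202 in Slc39a13-KO, the dim probe set carrying most of its difference. The probe sets of Lpp read 10121, 6513, 5474, 4390, 1606, 1387, 198 and 104 in wild-type and 7372, 6896, 5316, 3816, 1356, 1358, 245 and 86.0 in Slc39a13-KO. Pxn (paxillin) read 2861, 928 and 159 in wild-type and 2550, 707 and 291 in Slc39a13-KO, a mean of 0.11 with its dimmest probe set opposed to the others.

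Rhoa, Diaph1 and Srf all had ratios below 0, which only scaling on the poly-A controls turned for Rhoa and Srf and 3 of 11 settings turned for Diaph1, and none was called. Rhoa had 9167 and 8300 on its brighter probe set and a mean of -0.15, and Diaph1, the formin it activates, had 893 and 315 in wild-type and 821 and 305 in Slc39a13-KO (-0.08). Srf was at 976 and 428 in wild-type and at 605 and 302 in Slc39a13-KO. Both of its probe sets were lower, by a mean of 1.51-fold (log2 ratio -0.60, SD 0.13). Its cofactors outside the list, Mrtfa and Mrtfb, had ratios of 0.50 and 0.44 and were not called.

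Since Srf acts through the CArG box, the starts of the members were searched for it and the windows that hold it are shown because they single out which members carry the letters. The RefSeq promoter table (GRCm38.p6) gave 44 windows, each from 250 bases before to 50 after an annotated start, for 32 of the 39 members. A CArG box, which reads the same way on both strands, was present for 6 of these 32 genes (18.8%), against 1.81% of all 27025 genes of the table and 1.53% of measured genes. Because Srf targets include many genes of this machinery, these shares are only described. Actb was among the members without a window. In the 7 windows below, written 5′ to 3′ on the strand of the gene, capitals mark the box.
Fhl1, chrX:56779536-56779635, plus strand: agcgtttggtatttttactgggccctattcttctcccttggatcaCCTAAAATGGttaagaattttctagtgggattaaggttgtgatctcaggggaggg
Fhl2, upstream start, chr1:43196803-43196902, minus strand: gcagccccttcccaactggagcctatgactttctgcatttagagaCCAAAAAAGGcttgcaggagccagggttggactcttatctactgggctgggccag
Fhl2, downstream start, chr1:43163938-43164037, minus strand: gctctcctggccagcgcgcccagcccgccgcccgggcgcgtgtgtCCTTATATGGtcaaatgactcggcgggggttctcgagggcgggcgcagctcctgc
Srf, chr17:46556170-46556289, minus strand: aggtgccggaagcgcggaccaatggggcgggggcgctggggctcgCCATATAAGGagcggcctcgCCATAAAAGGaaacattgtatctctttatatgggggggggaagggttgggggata
Actg1, chr11:120348531-120348630, minus strand: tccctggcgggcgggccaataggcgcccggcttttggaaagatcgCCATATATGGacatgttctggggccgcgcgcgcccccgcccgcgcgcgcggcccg
Cnn2, chr10:79988499-79988598, plus strand: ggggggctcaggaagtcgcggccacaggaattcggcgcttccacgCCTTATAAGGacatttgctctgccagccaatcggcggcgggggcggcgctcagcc
Vcl, chr14:20929148-20929225, plus strand: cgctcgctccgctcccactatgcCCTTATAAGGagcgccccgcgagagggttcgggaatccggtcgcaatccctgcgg

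The box occurred both among members called lower and among members not called, and the part of Srf in the differences was not tested. Of the 6 genes with the box, Fhl1 was called lower, and Srf (-0.60), Cnn2 (0.01), Actg1 (0.17), Fhl2 (0.58) and Vcl (0.62) were not called. Of the 6 members called lower, all had a window and 1 held the box (16.7%), as did 5 of 25 other measured members (20.0%). Fhl1 and Fhl2, whose ratios lay furthest apart among the relatives compared, both had one. The boxes began at positions -227 to -31, counted back from the annotated start, and Srf had a pair.

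The letters GGAATG, which TEAD factors bind, were searched on both strands in the same windows. They were found for 9 of 32 members (28.1%), against 16.6% of all genes and 14.5% of measured genes. Tagln2 and Flnc held them among the lower members, 2 of 6 (33.3%), as did 7 of 25 others (28.0%). The motifs overlapped in 0 of the 44 windows, although the last letters of a CArG box can begin GGAATG. A match is a match of letters, and its use in these cells was not measured.

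The wider machinery also held calls in both directions. Of 80 measured genes in a list of other actin and adhesion genes, 8 (10.0%) were called lower and 5 (6.25%) higher, with a median of -0.12. Arp2/3 and WAVE genes, which nucleate branched filaments, and non-muscle myosin II genes were called in 0 of 13 and 0 of 7 cases. Over all measured genes, 8.01% were called higher and 5.93% lower. Cap1, a cyclase-associated protein that recycles actin monomers, was the largest difference of the list, at 405 on the wild-type and 3091 on the Slc39a13-KO array, 7.63-fold higher (log2 ratio 2.93, SD 0.32 between its probe sets).

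The bundling protein gene Fscn1 was 2.11-fold higher (1488 and 3146). Called lower were Pdlim1 (4.24-fold, 1526 and 360), Ablim1 (3.50-fold, 824 and 236), Pdlim4 (2.55-fold, 767 and 301) and Tns1 (2.52-fold, 1998 and 794). Tns1 (tensin 1) binds integrin tails at fibrillar adhesions, and its relatives Tns2 and Tns3 were both called higher (470 and 973, 905 and 1814). Limk1 and Limk2, the kinases that inactivate cofilin, were both called lower, by at least 2.36-fold and by 2.27-fold. Of 15 measured integrins (16 listed), the receptors that focal adhesions gather around, 3 (20.0%) were higher and 3 (20.0%) lower, where 8.01% and 5.93% of all genes were. The collagen receptor chain Itga2 read 1444 in Slc39a13-KO against the floor in wild-type, at least 17.0-fold higher, and Itga1, which also pairs to bind collagen, was at least 5.55-fold higher. Itga4 and Itgb3 were at least 2.98-fold and 2.46-fold lower, at the floor in Slc39a13-KO. Itga5, the fibronectin receptor chain, was 2.35-fold lower (441 and 188), and Itga10, a collagen receptor chain of cartilage, was 5.69-fold higher (88.8 and 505).

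**Figure D3:**
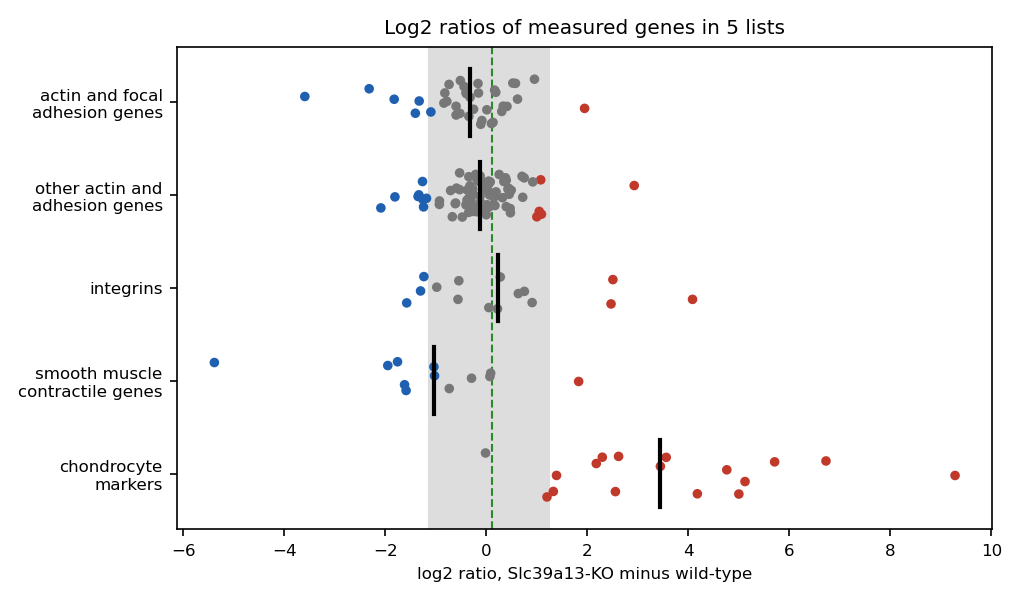
Horizontal axis, log2 ratio of the Slc39a13-KO to the wild-type signal, for 5 lists of genes, each point 1 measured gene, blue if called lower, red if called higher and gray if not called, with a black bar at the list median, the median of all genes as a green dashed line and the band from the 5th to the 95th percentile of all genes (-1.13 to 1.25) in gray. The list medians from top to bottom are -0.32, -0.12, 0.22, -1.03 and 3.45.

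Summed marker signals of other cell types differed between the same arrays. Of 12 measured smooth muscle contractile genes (median -1.03), 7 were lower and 1 was higher, where 5.93% and 8.01% of all genes were. The summed signal of that list was 170487 in wild-type and 114340 in Slc39a13-KO, with Actg2 at 12720 and 305 and Tagln at 24408 and 12020, while Des stayed near the floor (96.7 and 102) and Myocd below it. Smtn was the 1 called higher (449 and 1598), and the bright Cald1 (8429 and 8967) and Cnn1 (2666 and 2180) were not called. Of 17 measured chondrocyte markers, 16 were higher and 0 lower, and their summed signal was 11717 and 206857, with Acan, Cnmd and Matn1 at the floor in wild-type. Still, 7 of the 18 listed chondrocyte markers were above the floor on the wild-type array, among them Col2a1 (2592 and 47019). Of 13 macrophage and osteoclast markers 7 were higher and 0 lower (summed signal 5596 and 8966). Lyz2 differed most (255 and 2146), whereas Ctsk, the brightest on both arrays, was not called (4227 and 2956). Ptprc and Itgam lay below the floor on both arrays. The other lists were small in signal, with 2 of 5 measured skeletal muscle genes lower (1771 and 1319, Myod1 and Myog below the floor on both arrays), 1 of 4 endothelial genes in each direction (1426 and 1734), 2 of 5 epithelial genes lower and 1 higher (3801 and 1554), and 3 of 5 adipocyte genes higher (1198 and 3873). The part of these cell types in the differences of Fhl1, Tagln2, Tpm2, Flnc, Csrp1, Pdlim7 and Ezr was not tested.

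Of the members, 3 lie on the X chromosome, Fhl1, Flna and Msn, and all had ratios below 0 (-3.59, -0.44 and -0.82). The 398 measured X-linked genes had a median of 0.21, against 0.10 for 11847 autosomal genes, and 6.03% of them were called lower, against 5.90%. The part of the sex of the cultures in these ratios was not tested.

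The 7 calls differed in how they held over the 11 settings tried, which vary the scaling, the floor and the choice of probe sets. Fhl1, Tagln2 and Ezr were called in every setting that measured them. Scaling on the poly-A controls ended the calls of Tpm2, Flnc, Csrp1 and Pdlim7 and left 2 lower members beside 12 higher, in a setting where 45.8% of all genes were called higher. The floor at the 70th percentile also ended the call of Pdlim7 (log2 ratio -0.98) and added Palld, and the call of Tpm2 ended without suffixed probe sets (-0.83). Relative to the median of all genes in each setting, the lower members stayed below it and Ezr above it in all settings that measured them.

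**Figure D4:**
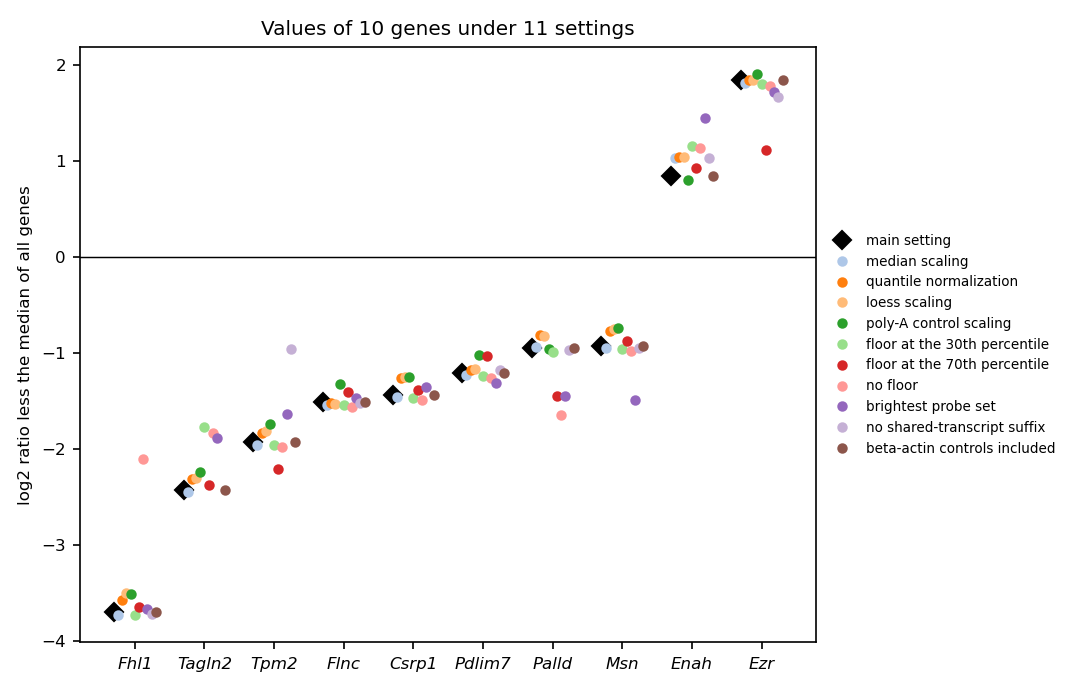
Log2 ratio less the median of all genes in the same setting (vertical axis) for the 7 called genes and for Palld, Msn and Enah (horizontal axis), under the main setting (diamonds) and 10 alternatives (circles). The values of each gene stay on 1 side of 0. Fhl1 lies between -3.73 and -2.10, its highest value being that without a floor, and Ezr between 1.11 and 1.91.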

How the data were processed

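RNA of 1 wild-type and 1 Slc39a13-KO culture was labeled with biotin and hybridized to Affymetrix mouse genome arrays. The deposited values are linear signal intensities per probe set. The methods of the study name gcRMA, but a 2% trimmed mean of 500.003 on both arrays is what MAS5 scaling gives. The values were therefore treated as MAS5 signals (version not given in the sources used here). Such scaling hides differences in total mRNA, and MAS5 signals near the floor are noisy. Of 45101 probe sets, 64 were controls, 34945 had 1 gene symbol, 932 several and 9160 none. Symbols were updated by gene ID from RefSeq (99.4% matched).

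Scaling, the floor at the 50th percentile and the 2-fold rule, the threshold of the study, were applied with Python 3.11.15, pandas 2.3.3, numpy 2.4.6, scipy 1.17.1 and statsmodels 0.14.6, and the calls were tested on simulated data with known answers. The simulated data held noise between probe sets but no variation between cultures. The number of arrays limits the precision. No p-value was computed. The members, the gene lists and the motifs were chosen with earlier results of these data known. Members were all counted, with the values of 1 not reported here, with full values for called genes, for genes of 3 or more or conflicting probe sets and for the ends of each role group. From the other lists, called genes were named, at most 4 in each direction. Genes named beside a relative, as defining markers or for contrast were chosen after their values were seen. The alternatives were 4 scalings, 3 floors and 3 choices of probe sets. A planned comparison of protein identity between relatives was not made.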

Additional observations from a re-analysis of the deposited data

How the results depend on the processing

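The alternatives were median, quantile, loess and poly-A control scaling, floors at the 30th and 70th percentiles and none, only the brightest probe set of a gene, only probe sets without a suffix for shared sequence, and the beta-actin controls included. The count of 6 lower members was 3 without suffixed probe sets, where Csrp1 and Tagln2 had no measured probe set and Tpm2 kept its dimmest, and 2 with poly-A scaling. The 1 higher member became 2, by the addition of Enah, with quantile and loess scaling, the 30th percentile floor, no floor, the brightest probe set and no suffixed probe sets, and 12 with poly-A scaling. The 8 lower genes of the wider machinery became 5 with the 70th percentile floor and 1 with poly-A scaling, and the 5 higher became 1 with median scaling, 3 with quantile and loess scaling and the brightest probe set, and 30 with poly-A scaling. Poly-A scaling multiplies all signals of an array by 1 factor, but the floor and the measured genes change with it (12872 genes, against 12269). The causes of the other moves were not tested. The median excess of the members over all genes (-0.42) stayed below 0, from -0.48 to -0.21. The lower members were 9 with the brightest probe set, which added Msn, Palld and Pdlim5, and 8 with median scaling, which added Msn and Tpm4, and the 70th percentile floor exchanged Pdlim7 for Palld at a count of 6. Without replicates, no array could be left out. No paired analysis was possible because each genotype had 1 array.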

Other observations

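LIM domains recur among the genes that were lower in the Slc39a13-KO array, a grouping made after the values were seen and therefore only described. Of the 23 genes with LIM domains in both actin lists, 10 of them members, 8 were called lower and 0 higher (34.8% lower, median log2 ratio -0.53). Of the 94 other measured genes of these lists, 6 were lower and 6 higher (6.38% lower, median -0.12), and 5.93% of all measured genes were lower. Beside Fhl1, Csrp1 and Pdlim7, the 8 were Pdlim1, Pdlim4, Ablim1, Limk1 and Limk2. The LIM proteins of the plaque were nearer to equal, with Zyx at -0.52, Lpp at -0.11, Pxn at 0.11 and Lims1 at 0.31, and Fhl2 stood at 0.58.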
